A study of Mus musculus with 2 samples.

Results

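Cd8b1-positive T cells were barcodes of the sorted intestinal preparation that carried T cell receptor complex transcripts and at least 1 transcript of Cd8b1, the CD8 beta chain. They were selected on counts of unique molecular identifiers (UMIs, 1 per captured transcript). A barcode needed at least 1000 UMIs, at least 200 genes, at most 25% mitochondrial UMIs, at least 2 UMIs of Cd3e, Cd3d and Cd3g together, at least 1 Cd8b1 UMI, no UMI of Trdc (the delta chain constant gene) and at most 1 UMI of Epcam. This gave 171 of the 12872 barcodes that passed the cell filter, 126 of 7609 in the wild type (WT) library and 45 of 5263 in the MG53-TG library. Each genotype was 1 library, so neither genotype had replicates, no test between genotypes was possible, and every interval given here is a 95% interval for counting error alone. Such an interval treats each UMI as independent, although UMIs of 1 cell are not.

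Both libraries came from mice that drank 2.5% dextran sulfate sodium (DSS), which damages the intestinal surface, and cells were taken on day 7. MG53-TG mice overexpress MG53 (TRIM72, a membrane repair protein) throughout the body, and WT mice were their littermates. The promoter that drives the transgene is not given in the sources used here. Crypt cells had been freed with an enzyme and sorted as live EpCAM-positive cells, and the paper elsewhere calls the collected cells CD45-negative, although its methods give no CD45 gate. How many T cells a library held can therefore depend on the sort as well as on the tissue, and these cannot be told apart. The study used several mice in each group for this assay, and the labels leave unstated the number that went into either library, so a library may pool several mice.

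Intraepithelial T cells lie between the epithelial cells of the gut and are rich in granzymes and in Ccl5. One branch is conventional: cells with an alpha-beta receptor and the CD8 alpha-beta coreceptor, primed elsewhere before they enter the epithelium. The other, called natural, includes gamma-delta T cells and alpha-beta cells with only CD8 alpha chains, and is known for low Cd5, Cd2 and Thy1 and for natural killer type adaptors such as Fcer1g and Tyrobp. Cd8b1 separates CD8 alpha-beta cells from CD8 alpha-alpha cells, whereas Cd8a is shared by both.

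CD3 transcripts were required by the selection, whereas the receptor chains and Cd8a were not. Trac, Trbc1 or Trbc2, the constant genes of the alpha and beta chains, had a UMI in 125 of 126 WT and 44 of 45 MG53-TG cells. Cd8a, which the selection did not use, had a UMI in 109 of 126 WT cells (86.5%, 79.3 to 91.9%) and 43 of 45 MG53-TG cells (95.6%, 84.9 to 99.5%). In epithelial barcodes, defined by at least 5 Epcam UMIs and no CD3 UMI, 1.09% of WT and 0.389% of MG53-TG barcodes had a Cd8a UMI at median depths of 17722 and 19964 UMIs. The rule on CD3 leaves out barcodes with T cell RNA, so this share can understate free RNA, and WT barcodes of 1 to 99 UMIs held 99.5 CPM of Cd8a. CPM are counts of a gene scaled so that the summed UMIs of all genes over the cells of a library come to 1000000. The selected cells themselves were shallower, with a median of 2284.5 UMIs in WT (1001 to 5725) and 3033 in MG53-TG (1641 to 5920). Cd4 had no UMI in either library. Markers of CD4 T cells summed to 1 UMI in WT and 0 in MG53-TG, those of macrophages to 0 in both, those of fibroblasts and endothelium to 1 and 0, and those of B and plasma cells to 11 and 2. The shares of cells with these UMIs were also high in gamma-delta T cells of the same libraries (at least 1 Trdc UMI, no Cd8b1 UMI). Of those, 345 of 358 in WT and 129 of 132 in MG53-TG held a Trac or Trbc UMI, and 84.1% and 89.4% held a Cd8a UMI. The markers of other cells named here were at or near 0. Ptprc, which encodes CD45, reached 1578 CPM (WT) and 1898 CPM (MG53-TG).

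Cd8b1 lies on chromosome 6 from 71322788 to 71337494 and Cd8a beside it from 71373427 to 71379173, both on the plus strand of GRCm38 (mm10). Trbc1 and Trbc2, the copies of the beta chain constant gene, are nearly identical in coding exon 1. A stretch of coding exon 1 is shown for both, from GENCODE vM21 transcripts on GRCm38, with the bases that differ between the copies in capitals. The stretches are chr6:41538443-41538592 and chr6:41546955-41547104 on the plus strand.
Trbc1: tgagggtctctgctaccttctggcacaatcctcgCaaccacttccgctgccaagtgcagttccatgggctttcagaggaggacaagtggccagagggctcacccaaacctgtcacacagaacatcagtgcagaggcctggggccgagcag
Trbc2: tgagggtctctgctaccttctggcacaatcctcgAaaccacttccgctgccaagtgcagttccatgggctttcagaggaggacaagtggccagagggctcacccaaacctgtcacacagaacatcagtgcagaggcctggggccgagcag
The 150 bases of Trbc1 and Trbc2 differed at 1 position, and exon 1 as a whole was identical at 374 of 375 positions. How the counting treated reads that fit both copies is not given in the sources used here. Reads of this kit lie toward the 3′ end, and the copies were compared in exon 1 alone. The identity of exon 1 therefore does not tell how well reads were split, and counts of a single copy were not checked. A UMI of both Trbc1 and Trbc2 was found in 44 WT cells (34.9%) and 17 MG53-TG cells (37.8%), Trbc2 alone in 74 and 26, Trbc1 alone in 5 and 0, and neither in 3 and 2. A T cell uses 1 beta constant gene on each rearranged chain.

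Gamma chain transcripts were present in these cells although Trdc was absent by selection. Tcrg-C2 had a UMI in 85 WT and 31 MG53-TG cells, and Trgv2, a gamma variable gene, in 64 and 28. Tcrg-C1, another gamma constant gene, was far scarcer, at 66.0 (WT) and 58.4 CPM (MG53-TG). Gamma-delta T cells of the same libraries held 1304 and 1287 CPM of it, whereas their Tcrg-C2 levels of 678 and 686 CPM lay close to those of Cd8b1-positive cells, 687 and 569 CPM. Trac and Trbc2 were higher by smaller margins, with log2 ratios over gamma-delta T cells of 0.76 (0.48 to 1.04) and 0.74 (0.59 to 0.88) in WT and 0.71 (0.30 to 1.10) and 0.48 (0.26 to 0.70) in MG53-TG. Trbc1 did not follow, with 0.02 (-0.22 to 0.24) in WT and -0.65 (-1.04 to -0.27) in MG53-TG, and the split of reads between the beta copies was not tested. Variable genes of the beta chain were seen in only 6 WT and 5 MG53-TG cells and those of the alpha chain in 4 and 8, so clonal make-up was not analysed here.

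Cd8b1-positive cells were 1.66% (1.38 to 1.97%) of WT and 0.855% (0.624 to 1.14%) of MG53-TG barcodes past the filter. T cells as a whole, which need the same CD3 UMIs and at most 1 Epcam UMI, were 833 in WT (10.9%) and 315 in MG53-TG (5.99%). Within the T cells the shares lay close together: Cd8b1-positive cells made up 15.1% (12.8 to 17.7%) in WT and 14.3% (10.6 to 18.6%) in MG53-TG, and gamma-delta T cells 43.0% and 41.9%. With at least 2 Cd8b1 UMIs required, the Cd8b1-positive shares were 8.76% in WT and 9.84% in MG53-TG, which turned their order, and the shares of all barcodes were 0.959% and 0.589%. T cells with neither UMI were 40.8% and 43.5%, and 9 WT and 1 MG53-TG cells held both. No barcode was shared by the T cells of the 2 libraries, and 8 barcodes were shared among all that passed the filter.

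**Figure D1:**
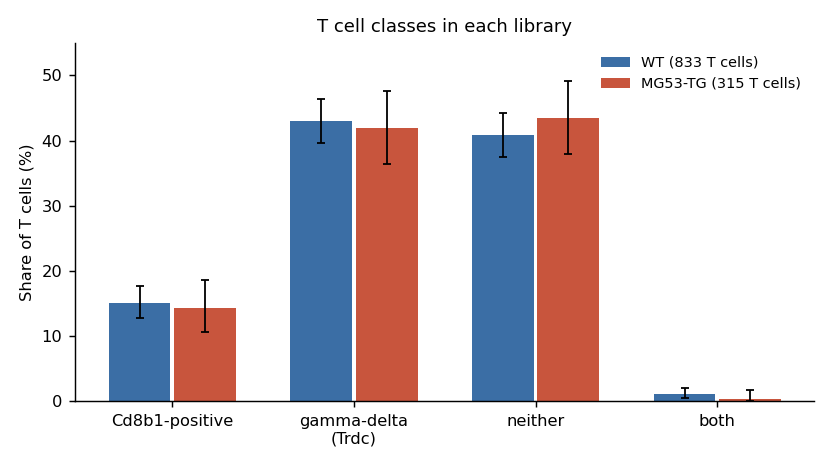
Share of T cells (y axis, %) in each class (x axis) for the WT and MG53-TG libraries, with exact 95% binomial intervals as error bars. Cd8b1-positive cells stood at 15.1% and 14.3%, with overlapping intervals.

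At the edge of the selection, 53 WT and 14 MG53-TG cells rested on a single Cd8b1 UMI, 30 and 11 had 2, 25 and 2 had 3, and 18 and 18 had 4 or more. Just outside were 2 WT cells with 1 CD3 UMI, 2 with 1 Trdc UMI, 2 with 2 Epcam UMIs and 1 with at least 500 but under 1000 UMIs, with 0 MG53-TG cells in each case. A further 4 WT and 1 MG53-TG cells lay between 25 and 50% mitochondrial UMIs. Among epithelial barcodes, 5 in each library held a Cd8b1 UMI.

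Ccl5 and Gzma were the most abundant of the effector transcripts described here. Ccl5, a chemokine that attracts T cells, reached 27922 CPM (WT) and 28269 CPM (MG53-TG), and 124 of 126 and 45 of 45 cells had a UMI. Gzma, a granule protease, reached 16704 (WT) and 12864 CPM (MG53-TG), a log2 ratio of -0.38 (-0.46 to -0.30). It was present in 102 WT cells (81.0%, 73.0 to 87.4%) and 32 MG53-TG cells (71.1%, 55.7 to 83.6%), and the median cell gave 1.31% and 1.30% of its UMIs to it. The summed levels thus lay further apart than the medians over cells. Gzmb, the second protease, had 2466 and 2241 CPM (log2 -0.14, -0.33 to 0.06, and -0.86 with at least 2 Cd8b1 UMIs), and Nkg7, a granule membrane protein, 1753 and 1818 CPM. Prf1, which encodes the pore former perforin, was low at 72.6 and 124 CPM, with a UMI in 19 and 15 cells. Gzmk stood at 287 and 292 CPM. In WT barcodes of 1 to 99 UMIs, which hold free RNA, Gzma reached 2812 and Ccl5 2728 CPM, while epithelial barcodes of the same library, chosen to lack CD3 UMIs, held 12.9 and 9.19 CPM. The MG53-TG table had no barcode under 500 UMIs, so its free RNA could not be read in this way.

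**Figure D2:**
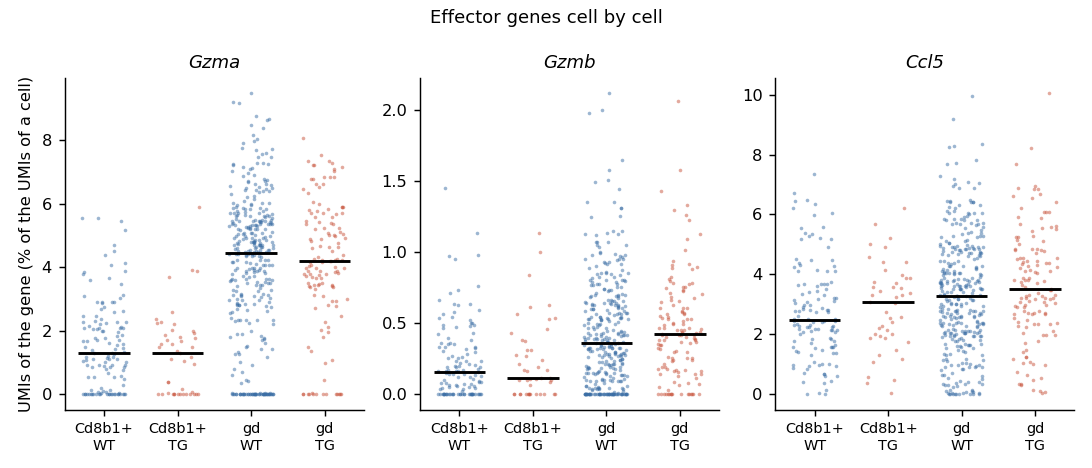
Each point is 1 cell, grouped by class and library (x axis), with the share of its UMIs that came from Gzma, Gzmb or Ccl5 (y axis, %), and the black line is the median. The median Gzma share was 1.31% and 1.30% in Cd8b1-positive cells against 4.44% and 4.19% in gamma-delta T cells.

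Signals other than Ccl5 were sparse. Ccl4 stood at 205 CPM (WT) and 139 CPM (MG53-TG), and Ltb, which encodes lymphotoxin beta, 102 and 212. Ifng was counted 5 times in WT and once in MG53-TG, Tnf once in each, and Il17a, Il22, Areg and Csf2 were not detected, which over 302919 WT and 136969 MG53-TG UMIs is a limit of depth. Of the 14 cytokine and chemokine genes examined, 4 had the 20 UMIs needed for a ratio.

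Homing receptors of the gut epithelium were present. Itgae, the alpha chain of the integrin that binds E-cadherin, stood at 779 CPM (WT) and 862 CPM (MG53-TG), Itgb7, its partner, 248 and 336, and Ccr9, the receptor for the small intestinal chemokine CCL25, 347 and 416. Itgae or Ccr9 had a UMI in 107 of 126 WT and 45 of 45 MG53-TG cells. Runx3, a transcription factor of CD8 cells, had 423 and 533 CPM, and Rgs1, a residency gene, 287 and 336. In the list of recirculation and naive or memory state, 7 of 12 genes had a UMI. Il7r and Foxp1, a transcription factor of quiescent T cells, gave most of them, at 267 and 221 CPM in WT and 402 and 234 CPM in MG53-TG. Ccr7 and Klf2 had no UMI in either library, and S1pr1 had 1 in WT and 0 in MG53-TG.

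Compared with gamma-delta T cells, Cd8b1-positive cells differed at few genes. Among 7611 genes with at least 20 UMIs and a ratio in each library, 108 were at least 2-fold higher in both libraries (1.42%) and 198 at least 2-fold lower in both (2.6%). The minimum counted both classes, and gamma-delta T cells held 1255888 (WT) and 532223 UMIs (MG53-TG) against 302919 and 136969. A gene could therefore pass through gamma-delta T cells alone, so the numbers of higher and lower genes cannot be set against each other. Trdc and Cd8b1 themselves chose the classes and are no finding. Cells of 1 library share its free RNA. The 12 genes highest by the smaller of the 2 ratios were BE692007, Cd2, Sit1, Ly6a, Ms4a4b, Cd5, Il7r, Gm8369, Cd6, Adgre5, Thy1 and Slfn1. The 12 lowest were Tcrg-C1, Cd200r2, Fcer1g, Clnk, Spp1, Tyrobp, Klrd1, Srgap3, Pim2, Myo1e, S100a1 and Fndc3b. Of these, Clnk, Spp1 and Srgap3 had 1 UMI in Cd8b1-positive cells of each library. Cd200r2, Pim2, Myo1e, S100a1 and Fndc3b had 1 UMI there in MG53-TG and 2 or 3 in WT. These genes passed the minimum through gamma-delta T cells, and their intervals were wide (S100a1 in MG53-TG: -8.10 to -0.14).

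Several of the named higher genes encode surface proteins of T cells. Cd2, an adhesion receptor, stood at 52.8 (WT) and 124 CPM (MG53-TG) in Cd8b1-positive cells against 1.59 and 3.76 in gamma-delta T cells, a log2 ratio of 5.05 in each library. Cd5, which dampens receptor signals, had 218 and 190 CPM against 0 and 13.2, so that its ratio was at least 6.51 in WT (floor of 3 counts) and 3.85 in MG53-TG. Cd6, its relative, had ratios of 5.04 (4.26 to 5.92) and 3.35 (2.60 to 4.15), and Thy1 3.43 (2.88 to 4.01) and 2.96 (2.21 to 3.75). These 4 genes were joined after their values were seen, and a UMI of any of them was found in 104 of 126 WT and 42 of 45 MG53-TG Cd8b1-positive cells. In gamma-delta T cells it was found in 41 of 358 and 29 of 132, although these were deeper, with medians of 2915 and 3644.5 UMIs. The alpha chain of the interleukin 7 receptor, Il7r, had ratios of 4.22 and 3.74, and Lat, an adaptor of receptor signalling, 2.20 (1.90 to 2.51) and 1.75 (1.36 to 2.14). In the list of receptor signalling genes, 5 of 14 with a ratio were at least 2-fold higher in both libraries (Cd2, Cd5, Cd6, Thy1 and Lat) and 0 lower. Lck, Zap70, Lcp2, Fyn and Skap1 were all within 2-fold in each library.

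The same direction held for some migration genes. Itga4 was higher by 2.05 in WT and 1.86 in MG53-TG on the log2 scale, Itgal by 2.47 and 3.22, and the chemokine receptor Cxcr3 by 1.37 and 2.44, which made 3 of the 14 homing genes with a ratio. Itgae differed little, at 0.19 (-0.03 to 0.40) and -0.06 (-0.37 to 0.23). Of 11 granule genes, Gzmk was at least 2-fold higher in both libraries, at 2.04 (1.59 to 2.48) and 1.67 (1.03 to 2.30). Gzma was the 1 at least 2-fold lower, at -1.20 (-1.25 to -1.16) and -1.72 (-1.80 to -1.65), and Gzmb stood at -0.81 and -1.15.

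Natural killer type genes were lower. Fcer1g, a signalling adaptor, stood at 188 (WT) and 94.9 CPM (MG53-TG), compared with 2225 and 2050 in gamma-delta T cells, and Tyrobp, a like adaptor, 119 and 36.5 against 1177 and 1041. Klrd1, which encodes CD94, had log2 ratios of -3.25 (-3.88 to -2.68) and -3.77 (-4.78 to -2.92). Ikzf2, the transcription factor Helios, stood at -2.61 and -4.26, and Cd7 at -1.41 and -1.23. In this list, 6 of 9 genes with a ratio were at least 2-fold lower in both libraries and 0 higher. Cd160, a receptor of the same list, was not among them, with 0.41 (0.13 to 0.67) in WT and 0.65 in MG53-TG. Il2rb, the shared receptor chain for interleukins 2 and 15, stood at -1.44 and -2.24.

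Some activation and division genes were also lower. Lag3, an inhibitory receptor, had ratios of -1.69 and -2.83, and 3 of the 7 activation and inhibitory receptors with a ratio were at least 2-fold lower in both libraries (Lag3, Tnfrsf9 and Entpd1). Among the division genes it was 3 of 9 (Top2a, Birc5 and Stmn1), and Mki67 or Top2a had a UMI in 12 WT and 3 MG53-TG Cd8b1-positive cells. Bcl2l11, which promotes cell death, stood at -2.07 and -2.78, while Fas, a death receptor, stood at 1.91 and 1.37. Genes of MHC class I presentation and heat shock had 0 members at least 2-fold apart in either direction. Interferon response genes had 1 of 12, Ly6a.

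T cells with neither Cd8b1 nor Trdc UMIs had levels near those of gamma-delta T cells at some of these genes. Fcer1g had a UMI in 259 of 340 WT and 102 of 137 MG53-TG cells of that class, and Cd5 in 23 and 15. This class can hold cells whose Cd8b1 or Trdc transcripts were missed.

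**Figure D3:**
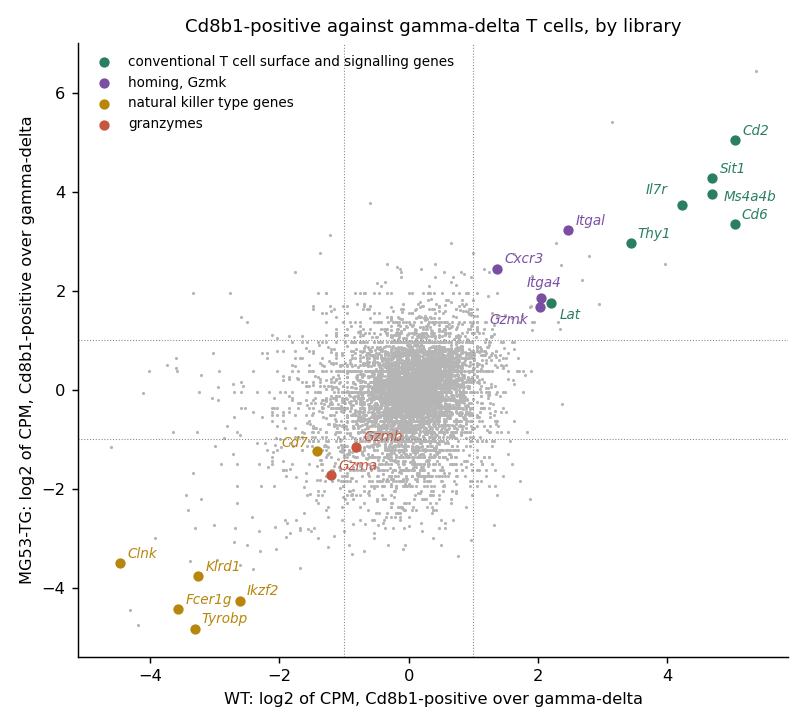
Log2 ratio of CPM, Cd8b1-positive over gamma-delta T cells, in WT (x axis) and MG53-TG (y axis) for genes with at least 30 UMIs in both classes and libraries together and a UMI in each of them. Dotted lines mark 2-fold. Cd2, Sit1, Ms4a4b and Cd6 lie at the upper right and Fcer1g, Tyrobp, Klrd1 and Clnk at the lower left. Clnk rests on 1 UMI in Cd8b1-positive cells of each library, against 91 (WT) and 44 (MG53-TG) in gamma-delta T cells.

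The cells were not uniform. Gzma and Gzmb were both present in 90 WT cells (71.4%, 62.7 to 79.1%) and 29 MG53-TG cells (64.4%, 48.8 to 78.1%), and neither was in 22 WT (17.5%, 11.3 to 25.2%) and 11 MG53-TG cells (24.4%, 12.9 to 39.5%). Cells with neither were not shallower, with medians of 2481 and 3549 UMIs against 2217 and 2849.5 in the others. The split was made after the values were seen, and the values below describe it without a test.

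Cells without granzyme UMIs more often held Tcf7, a transcription factor of naive and stem-like memory T cells. It had a UMI in 6 of 22 such cells in WT (27.3%, 10.7 to 50.2%) against 3 of 104 others (2.88%, 0.599 to 8.20%), and in 7 of 11 (63.6%, 30.8 to 89.1%) against 4 of 34 (11.8%, 3.30 to 27.5%) in MG53-TG. Xcl1, a chemokine that draws cross-presenting dendritic cells, was found in 10 of 22 against 9 of 104 cells in WT and in 4 of 11 against 2 of 34 in MG53-TG. Ms4a4b was found in 19 of 22 against 53 of 104 and in 11 of 11 against 20 of 34, and Cd160 in 18 of 22 against 60 of 104 and in 11 of 11 against 23 of 34. Ccl5 was still present in 20 of 22 and 11 of 11 of these cells, at 12898 and 14951 CPM against 31461 and 33711 in the others. Itga1, the collagen-binding integrin chain, went the other way, at 8 of 22 against 67 of 104 and 8 of 11 against 29 of 34.

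**Figure D4:**
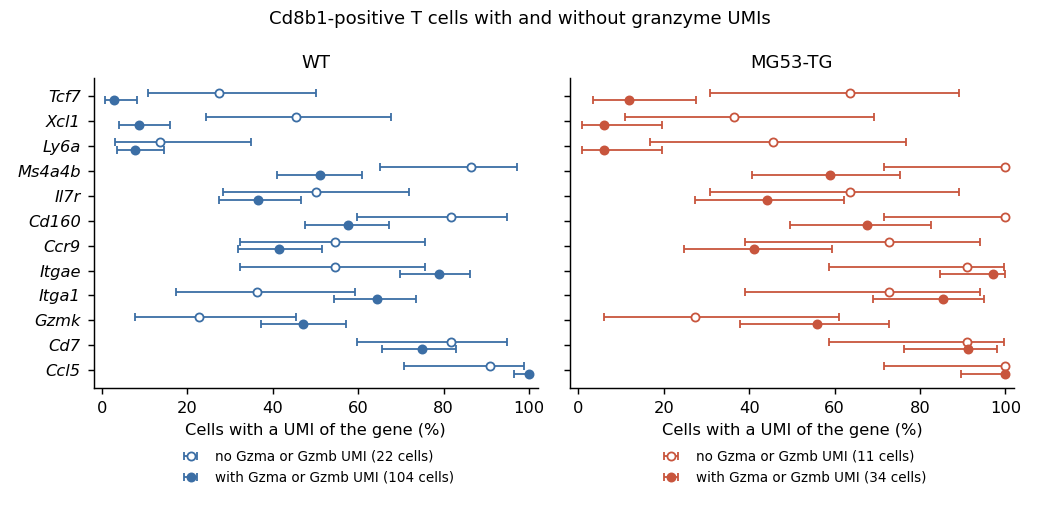
Share of Cd8b1-positive cells with a UMI of each gene (x axis, %; genes on the y axis) in WT (left) and MG53-TG (right), with exact 95% binomial intervals. Open points are cells with no Gzma and no Gzmb UMI (22 and 11 cells), filled points the others (104 and 34). Tcf7 and Xcl1 lie further right in the open points of each library.

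A second, smaller group, also set apart after the values were seen, held the natural killer type adaptors. Fcer1g or Tyrobp had a UMI in 12 WT cells (9.52%) and 2 MG53-TG cells (4.44%). In these 12 WT cells Gzma stood at 33614 CPM against 14507 in the other 114, Cd7 at 3387 against 996 and Ikzf2 at 316 against 37.3, and 7 of 12 against 11 of 114 held Klrd1. Cd6 was found in 4 of 12 against 68 of 114 of them. Their levels of these genes thus lay toward those of gamma-delta T cells, whose Gzma stood at 38461 and Cd7 at 3384 CPM in WT. Of the 12 WT cells, 5 also held a UMI of Cd5, Cd6, Cd2 or Thy1, and all 5 had 2 or more Cd8b1 UMIs. In WT, Fcer1g was found in 6 of 53 cells with 1 Cd8b1 UMI and in 3 of 73 with more. Whether some cells of this group carried a stray Cd8b1 UMI was not tested. The median depth of the 12 was 2571 UMIs against 2254.5 in the other 114. Leaving out the highest doublet scores removed 1 of the 126 WT cells and 0 of the 45 MG53-TG cells.

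Trim72, which encodes MG53, is the gene that the labels say differs between the groups. No UMI was found in the 126 WT cells, with an exact upper bound of 2.89% that limits cells with a UMI and not cells that express the gene, and 6 UMIs were found in 5 of the 45 MG53-TG cells (11.1%, 3.71 to 24.1%), or 43.8 CPM (16.1 to 95.3). The ratio was at least 2.15 on the log2 scale against a floor of 3 counts. Gamma-delta T cells had 0 CPM in WT and 43.2 in MG53-TG, T cells with neither UMI 0 and 57.0, and epithelial barcodes 0.634 and 50.1. Epithelial markers in the same MG53-TG Cd8b1-positive cells summed to 679 CPM, against 22801 in epithelial barcodes. The part of free or epithelial RNA in these 6 UMIs was not tested. Reads of the transgene and of the endogenous gene cannot be told apart in these counts.

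Between genotypes, few genes of Cd8b1-positive cells lay far apart. Of 3186 genes with at least 20 UMIs over both libraries, 101 were at least 2-fold higher in MG53-TG (3.17%) and 167 at least 2-fold lower (5.24%), with a median log2 ratio of -0.0069. Median-of-ratios scaling shifted every log2 ratio by -0.15 and gave 66 higher and 226 lower, so the split between directions depended on the scaling. An interval above 0 was found for 115 genes and below 0 for 100 genes.

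Many of the lower genes were not T cell genes. Among genes with at least 30 UMIs and an interval that left out a ratio of 1, 47 of those lower in MG53-TG had a level in WT epithelial barcodes at or above that in WT Cd8b1-positive cells, and 37 did not. The 47 were led by the Paneth cell defensins Defa29, Defa22, Defa21 and Defa24 (log2 -4.02, -4.02, -3.69 and -2.04), by AY761184 and Gm7861, and by Lgals2, Guca2b, Dmbt1, Krt19 and Prap1. The summed level of 11 epithelial markers in Cd8b1-positive cells was 1251 CPM in WT and 679 in MG53-TG (log2 -0.88, -1.22 to -0.55), against 20052 and 22801 CPM in epithelial barcodes. Each marker had a UMI in at least 1 of the libraries, and 3 of 6 with a ratio had intervals below 0. Among the higher genes, 4 were of this kind and 95 were not. The part of epithelial RNA in the other genotype differences was not tested.

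The 12 highest of the remaining 95 genes were Gm5547, Macf1, Ube2s, Isca2, Srsf1, Etv3, Tnik, Rab11fip4, Phip, Cd2, Wls and Nde1, with log2 ratios of 1.84 down to 1.23. The 12 lowest of the remaining 37 were Sdhaf4, Chtop, Rapsn, Tyrobp, Xcl1, Inpp1, Hnrnpd, Rpa1, Arhgap15, Sat1, Pak1ip1 and Hdgf, from -1.90 to -1.38. Each rested on few UMIs: Tnik, a kinase, on 22 in WT and 25 in MG53-TG, Chtop, an RNA export factor, on 38 and 5, and Sdhaf4, an assembly factor of a respiratory complex, on 33 and 4.

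In the role lists, Tcf7, Il7r, Ltb, Cd2, Itga1, Cd160, Cd7, Ptprc, Lck and H2-Q7 had intervals above 0, and Gzma, Xcl1, Fcer1g and Tyrobp below 0. Over all 3186 genes with a ratio, 115 had an interval above 0 and 100 below 0. Tcf7 stood at 39.6 (WT) and 117 CPM (MG53-TG), a log2 ratio of 1.56 (0.39 to 2.77), with a UMI in 9 of 126 (7.14%, 3.32 to 13.1%) and 11 of 45 cells (24.4%, 12.9 to 39.5%). When each cell was thinned to 1000 UMIs the expected shares were 2.78% and 9.43%, and 1.77% and 1.68% of the far deeper epithelial barcodes held a Tcf7 UMI. Il7r had 267 and 402 CPM (0.59, 0.07 to 1.10), Ltb 102 and 212 (1.05, 0.27 to 1.83) and Cd2 52.8 and 124 (1.23, 0.16 to 2.31). Itga1 had 403 and 679 CPM (0.75, 0.35 to 1.15), with a UMI in 75 of 126 and 37 of 45 cells. Cd160 (0.47, 0.09 to 0.85), Cd7 (0.39, 0.15 to 0.63), Ptprc (0.27, 0.04 to 0.49), H2-Q7 (0.34, 0.04 to 0.64) and Lck (0.37, 0.00034 to 0.74) were higher by less. For Cd7, 1 MG53-TG cell held 45 of 228 UMIs, and its ratio ranged from 0.21 to 0.45 over other settings. The shift of -0.15 from median-of-ratios scaling would take the lower ends for Il7r, Cd160, Ptprc, H2-Q7 and Lck below 0, and the upper ends for Gzmb, Ccl5, Trbc1, Trbc2, Zap70, Srgn, Ly6e and Hsp90ab1 as well. In gamma-delta T cells of the same libraries, Tcf7 had 30.3 and 37.6 CPM, Il7r 14.3 and 30.1, Ltb 53.3 and 73.3 and Itga1 592 and 678. Only 28 UMIs of Tcf7 were counted in all, and whether these differences stand apart from the spread between mice cannot be known from 1 library of each genotype.

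Xcl1, Fcer1g and Tyrobp were lower, and each rested on few cells. Xcl1 stood at 162 (WT) and 51.1 CPM (MG53-TG) (-1.66, -3.05 to -0.51), with a UMI in 15.1% and 13.3% of cells, or 8.92% and 4.51% when each cell was thinned to 1000 UMIs, and 1 WT cell held 17 of the 49 UMIs. Fcer1g had 57 UMIs in 9 WT cells and 13 in 1 MG53-TG cell (-0.99, -1.98 to -0.10), and Tyrobp 36 in 7 and 5 in 2 cells (-1.70, -3.41 to -0.35). For Tyrobp, 1 WT cell held 17 of the 36 UMIs and 1 MG53-TG cell 4 of the 5. Its ratio ranged from -4.14 to -0.92 over other settings. The ratio of Fcer1g was 0.82 when at least 2 Cd8b1 UMIs were required and -2.92 with no Epcam UMI. For Gzma, 1 MG53-TG cell held 348 of 1762 UMIs, and without the cell richest in it in each library the ratio was -0.56. With at least 2 Cd8b1 UMIs it was -0.83.

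Cd3e, Cd3d and Cd3g chose the cells, so their levels and the sum of the receptor list, at 0.01 (-0.10 to 0.11), are a description only. Of the receptor chains that the selection did not use, Trac stood at 0.16 (-0.25 to 0.57), Trbc1 at -0.39 (-0.81 to 0.02), Trbc2 at -0.09 (-0.32 to 0.13) and Cd247 at -0.23 (-1.20 to 0.66), and each interval held 0. Cd8a was at 0.17 (-0.10 to 0.44). Of the 19 role lists, 8 had a summed level whose interval left out a ratio of 1. The list of cytotoxic granule genes was the only one of these that was lower, at -0.27 (-0.34 to -0.21), while 5 of its 11 genes with a ratio were higher, 6 lower and the median was -0.01. Gzma supplied 5060 of its 7125 UMIs in WT and 1762 of 2666 in MG53-TG. Receptor signalling stood at 0.19 (0.07 to 0.31) with 10 genes higher and 4 lower, homing at 0.22 (0.07 to 0.37) with 9 and 5, recirculation and memory state at 0.42 (0.06 to 0.77) with 3 and 0, and MHC class I presentation at 0.12 (0.02 to 0.22) with 8 and 2. Over all 3186 genes with a ratio, 1575 were higher and 1611 lower. Natural killer type genes were at 0.21 (0.03 to 0.38) with 3 higher and 4 lower and a median of -0.04. Coreceptors were at 0.20 (0.0027 to 0.40), with Cd8b1 itself among them, and residency genes at 0.28 (0.0044 to 0.56). Under median-of-ratios scaling 4 lists had such an interval.

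Stress, division and metabolism gave no separation. Heat shock genes stood at 0.01 (-0.16 to 0.18), interferon response at 0.05 (-0.17 to 0.27), immediate early genes at 0.07 (-0.31 to 0.44), cell cycle at 0.24 (-0.22 to 0.68), apoptosis at -0.18 (-0.50 to 0.13) and targets of Atf4 in the amino acid response at -0.18 (-0.66 to 0.29). Genes of PPAR signalling and fatty acid use, the pathway the study followed in epithelium, stood at -0.10 (-0.61 to 0.40), with 2 of 15 genes counted often enough for a ratio. Cytokine receptors had -0.0018 (-0.34 to 0.33) and activation and inhibitory receptors 0.11 (-0.28 to 0.49).

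**Figure D5:**
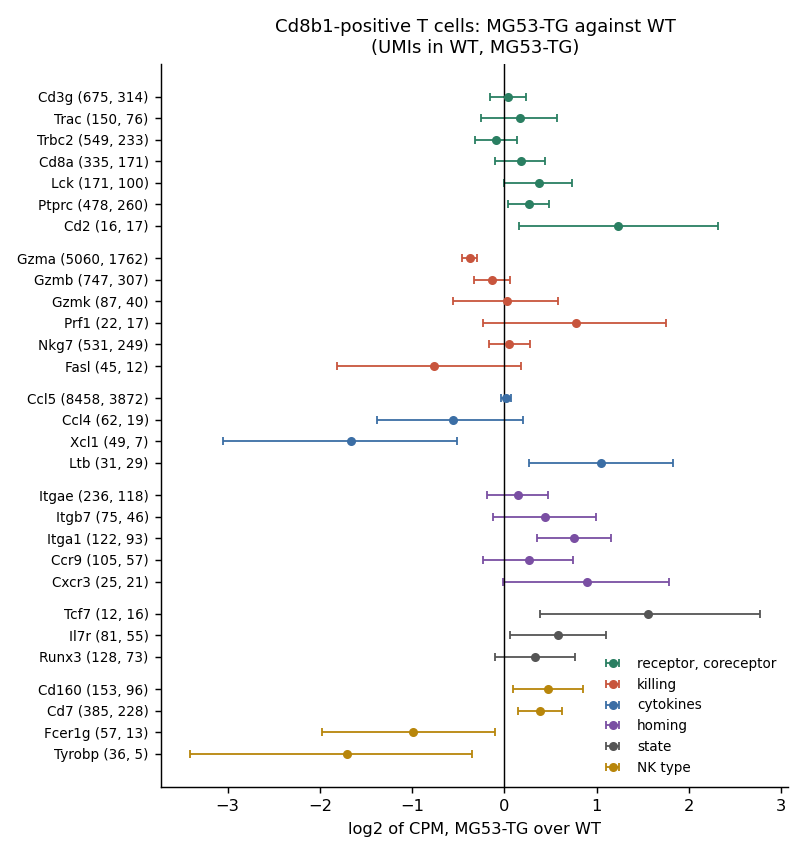
Log2 ratio of CPM, MG53-TG over WT (x axis), in Cd8b1-positive cells for genes grouped by role (y axis, with UMIs in WT and MG53-TG), with exact 95% intervals. Ccl5 sits at 0.02 and Gzma at -0.38 with narrow intervals, while Tcf7, Xcl1 and Tyrobp have wide ones.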

How the data were processed

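The deposited values were counts of UMIs per gene and barcode for 2 libraries (10x Genomics 3′ kit, version 3), which the authors made with Cell Ranger against mm10. The file headers name different Cell Ranger versions for WT and MG53-TG, and the WT table kept empty barcodes whereas the lowest MG53-TG barcode had 500 UMIs, so genotype, library and upstream processing coincide. The submitters' notes also name Seurat. Strand use and the handling of multi-mapped reads are not given in the sources used here.

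Cells were selected as stated at the start of the report. The UMIs of 302919 WT and 136969 MG53-TG transcripts were summed over the cells of each library and scaled to CPM. Shares have exact Clopper-Pearson intervals, levels exact Poisson intervals and ratios exact conditional binomial intervals, all at 95%. Where 1 sum was 0, a ratio is a bound against a floor of 3 counts. Ratios were used from 20 UMIs and genes named from 30 UMIs, 12 in each direction. Other genes were taken from lists by role. With 1 library per genotype no test was made. Cell selection, gene lists and comparisons were chosen with earlier results of these data known. Intervals were tested on simulated counts drawn independently, which cannot show the effect of UMIs that cluster within cells. The scaling was not tested in this way. Alternatives were other limits of the selection, doublet scores from Scrublet (scanpy 1.11.5, without the highest 0.8% per 1000 cells), median-of-ratios scaling, the mean of single-cell CPM and a minimum of 50 UMIs. Software was Python 3.11.15 with numpy 2.4.6, pandas 2.3.3, scipy 1.17.1 and matplotlib 3.10.9. A few genes and a sequence pair are not reported here.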

Additional observations from a re-analysis of the deposited data

How the results depend on the processing

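The share of Cd8b1-positive cells among barcodes was 0.959% in WT and 0.589% in MG53-TG with at least 2 Cd8b1 UMIs, and 1.32% and 0.576% with a mitochondrial limit of 50%. With a minimum of 2000 UMIs it was 1.17% in WT. Among T cells the shares were 8.76% and 9.84% with at least 2 Cd8b1 UMIs, which turned their order. Under median-of-ratios scaling 66 genes were at least 2-fold higher in MG53-TG, and with at least 50 UMIs 6 were higher and 26 lower. Against gamma-delta T cells 41 genes were higher with at least 50 UMIs. Role lists with an interval that left out a ratio of 1 numbered 4 with a mitochondrial limit of 10%, 3 with 50%, 5 with at least 2 Cd8b1 UMIs, 5 with no Epcam UMI and 4 under median-of-ratios scaling. The ratio of Fcer1g was 0.82 with at least 2 Cd8b1 UMIs and that of the MHC class I list -0.026 under median-of-ratios scaling. The latter follows from a shift of -0.15 that this scaling gives every log2 ratio. The cause of the other changes was not tested. Of the recomputed log2 ratios of genes and lists, 620 stayed inside the interval of the reported value, 23 left it and 2 reversed. Tcf7 ranged from 1.27 to 1.84 and Gzma from -0.83 to -0.29. Marker lists without a UMI in 1 of the libraries gave no ratio. Leaving out gamma-delta T cells above 10000 UMIs, leaving out the cell richest in a gene and recomputing the Trbc shares were chosen after seeing the data. No paired analysis was possible because each genotype had 1 library.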
